A study of Mus musculus with 4 samples.

Results

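Angiogenic growth factors and related secreted proteins were examined in adult bone marrow mesenchymal stromal cells (MSCs), the connective tissue cells of the marrow that help to form the niche of blood stem cells. The set holds 10 genes, taken by symbol from the deposited table of 56980 genes: Vegfa, Vegfb, Vegfc, Vegfd and Pgf (ligands of the VEGF family), Flt1 (a VEGF receptor), Angpt2 (an angiopoietin), Angptl2 and Angptl4 (angiopoietin-like proteins) and Adm (adrenomedullin). All 10 were found once each in the table. The 4 libraries are from 4 male wild-type C57BL/6J mice of an in-house colony, aged 14 weeks, with 100 cells per mouse, sorted for CD51 and PDGFRa and against CD45, Ter119, CD31 and Sca1. They form 1 group without treatment, so no conditions were compared, and the questions are how high each factor stood and how far it varied between mice.

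VEGF ligands are dimers that bind receptor tyrosine kinases on endothelial cells. VEGFA binds VEGFR1 (Flt1) and VEGFR2 (Kdr), VEGFB and placental growth factor (Pgf) bind VEGFR1, and VEGFC and VEGFD bind VEGFR3 (Flt4), the main receptor of lymphatic endothelium. Angiopoietins bind the receptor Tie2 (Tek), for which Angpt1 is an agonist and Angpt2 a context-dependent antagonist. Angptl4 inhibits lipoprotein lipase and is induced by hypoxia and by PPAR transcription factors. Adrenomedullin is a vasodilator peptide that signals through Calcrl paired with Ramp2 or Ramp3. In bone, VEGFA from osteoblast-lineage cells and chondrocytes is known to couple vessel growth to bone formation.

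RefSeq sequences upstream of the annotated start were matched by symbol for 8 of the 10 genes, with no entry for Angpt2 and Angptl4. The 250 bases before the most upstream start are shown for Vegfa and Vegfc, the principal ligand and the ligand with the widest range among those found in every mouse, and for Adm, which was found in some mice and not in others. Capitals mark matches, on either strand, to the GC box GGGCGG and to the hypoxia response cores ACGTG and GCGTG.
Vegfa upstream, GRCm38.p6 chr17:46032378-46032627, minus strand: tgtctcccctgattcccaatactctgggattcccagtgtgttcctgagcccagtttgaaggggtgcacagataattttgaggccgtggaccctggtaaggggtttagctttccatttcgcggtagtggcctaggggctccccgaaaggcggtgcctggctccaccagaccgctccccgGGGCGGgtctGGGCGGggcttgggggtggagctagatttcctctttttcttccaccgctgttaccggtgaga
Vegfc upstream, GRCm38.p6 chr8:54077282-54077531, plus strand: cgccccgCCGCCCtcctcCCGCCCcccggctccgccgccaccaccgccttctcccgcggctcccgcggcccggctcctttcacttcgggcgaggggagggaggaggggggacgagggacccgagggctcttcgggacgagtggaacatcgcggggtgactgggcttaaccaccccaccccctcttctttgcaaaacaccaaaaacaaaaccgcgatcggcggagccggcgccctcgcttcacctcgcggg
Adm upstream, GRCm38.p6 chr7:110627407-110627656, plus strand: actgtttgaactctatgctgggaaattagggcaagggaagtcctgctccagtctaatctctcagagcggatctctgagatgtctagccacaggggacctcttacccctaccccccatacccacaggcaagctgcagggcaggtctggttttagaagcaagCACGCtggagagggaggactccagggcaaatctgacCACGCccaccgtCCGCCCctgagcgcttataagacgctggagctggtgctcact
Within these windows Vegfa and Vegfc held 2 GC boxes each and no hypoxia core. Adm held 2 matches to GCGTG and 1 GC box. Of the 32851 RefSeq windows of this length, 32.7% held GGGCGG, 28.2% held GCGTG, 16.6% held ACGTG and 12.4% held the TATA box TATAAA, which none of the 3 windows shown held. In the windows of the other 5 matched genes, which are not shown, ACGTG was not found, GCGTG was found in Vegfb (2 matches), Pgf and Flt1 (1 each), and TATAAA in Vegfd and Flt1 (1 each). The letters are a description of these windows and do not show binding.

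Libraries held between 22738604 and 43545349 counts on genes. Levels are given as TPM, a unit of transcript abundance in which the count of a gene is divided by its exon length and each library is scaled to a sum of 1000000. With 3 counts as the smallest detectable value, a library could show between 0.0126 and 0.181 TPM of the 10 genes, depending on gene length and depth, and such limits cover counting error only. The genes of the sort antigens went with the labels for Pdgfra (30.7 to 48.2 TPM) and Itgav, the gene of CD51 (12.9 to 18.1 TPM), while Pecam1, the gene of CD31, had 5 to 14 counts and Ptprc, the gene of CD45, 0 to 50 counts. Ly6a, the gene of Sca1, had 1, 120, 0 and 144 counts in mice 1, 2, 3 and 4. This is 8.95 TPM in mouse 2 and 11.6 TPM in mouse 4, not far below Itgav, though the sort was against Sca1. Of 7 osteoblast markers all were above 1 TPM in every mouse, with a summed level of 102175 to 197228 TPM. Because these are bulk samples, fewer cells of a type and less RNA per cell cannot be told apart.

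A median above 1 TPM was reached by 8 of the 10 genes, against 44.2% of protein-coding genes and 22.9% of all genes with a known length. Vegfd and Flt1 did not reach it. Above 1 TPM in every mouse were 6 genes, Vegfa, Vegfc, Pgf, Angpt2, Angptl2 and Angptl4, where 30.1% of protein-coding genes were. By median, Angptl4 was highest, followed by Pgf, Angpt2, Vegfc, Adm, Angptl2, Vegfa and Vegfb. None of the 10 shares exonic bases with another annotated gene, and none has near-identical stretches in other genes.

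**Figure D1:**
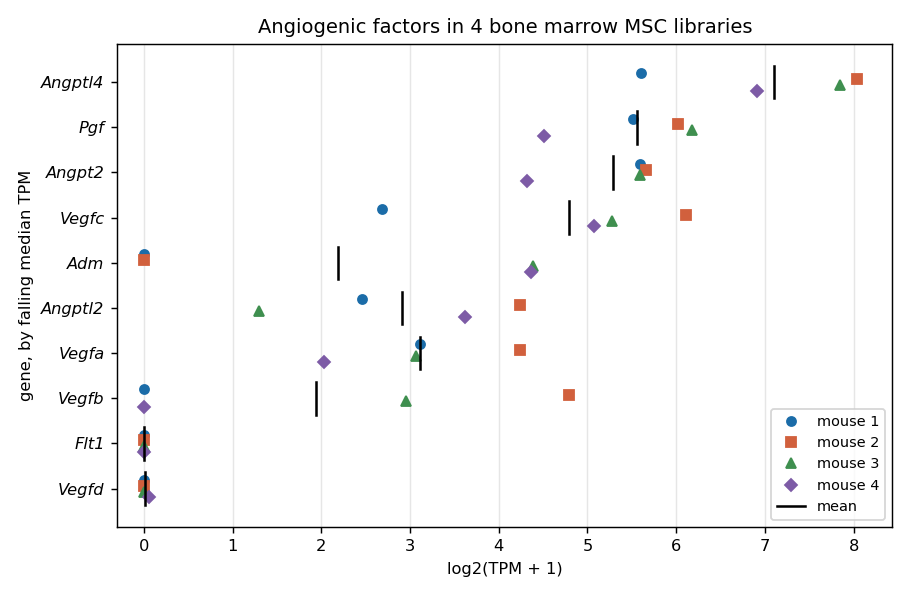
Level of the 10 genes as log2(TPM + 1), horizontal, with 1 point per mouse and a vertical bar for the mean of 4 mice. Angptl4 stands highest in 4 of 4 mice, Flt1 and Vegfd lie at or next to 0, and Adm and Vegfb each lie at 0 in 2 mice.

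Among the VEGF ligands, Pgf had the highest mean and median, though Vegfc stood above it in mice 2 and 4. Pgf (ENSMUSG00000004791; GRCm38 chromosome 12, 85166635 to 85177790, minus strand) had 2282, 2057, 3582 and 656 counts in mice 1 to 4, or 44.7, 63.7, 71.4 and 21.9 TPM. Mouse 4 was lowest and mice 2 and 3 highest. The mean was 50.4 ± 22.1 TPM (SD, n = 4), and the median was higher than that of 93.1% of protein-coding genes.

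Vegfc (ENSMUSG00000031520; chromosome 8, 54077606 to 54187096, plus strand), the lymphangiogenic ligand, had 234, 1853, 1600 and 829 counts, which correspond to 5.43, 68.0, 37.8 and 32.8 TPM. Mouse 1 stood below the others and mouse 2 above them, a range of 12.5-fold. The mean was 36.0 ± 25.6 TPM (SD, n = 4).

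Vegfa (ENSMUSG00000023951; chromosome 17, 46016993 to 46032369, minus strand), the principal endothelial growth factor, was lower. It had 574, 851, 544 and 137 counts, or 7.61, 17.9, 7.35 and 3.09 TPM. Mouse 2 was highest and mouse 4 lowest. The mean of 8.98 ± 6.27 TPM (SD, n = 4) fell to 6.02 TPM without mouse 2. Counts were taken per gene, so splice forms of Vegfa that bind the matrix more or less tightly were not resolved.

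Vegfb (ENSMUSG00000024962; chromosome 19, 6982473 to 6987651, minus strand), a VEGFR1 ligand, was found in 2 of 4 libraries. Its counts were 0, 476, 188 and 0, or 26.7 TPM in mouse 2 and 6.78 TPM in mouse 3. In mice 1 and 4 the limit of detection was 0.106 and 0.181 TPM. Without mouse 2 the mean of 8.36 ± 12.6 TPM (SD, n = 4) fell to 2.26 TPM. Vegfd (ENSMUSG00000031380; chromosome X, 164373378 to 164402650, plus strand) had 1 count in mouse 4 and 0 in the other 3, under the limit of 0.0708 to 0.121 TPM.

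Summed over the 5 VEGF ligands, the level was 57.7, 176, 123 and 57.8 TPM in mice 1 to 4. Pgf made up 52.3% ± 19.4 of this sum (mean ± SD, n = 4), Vegfc 33.8% ± 19.6, Vegfa 8.66% ± 3.69 and Vegfb 5.16% ± 7.14. Pgf and Vegfc exchanged the first place between mice. Pgf took 77.4% in mouse 1, where Vegfc took 9.41%, and 37.9% in mouse 4, where Vegfc took 56.7%. Vegfa never exceeded 13.2%.

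Within each mouse, Vegfa was set against the other ligands of its family as a difference in log2(TPM + 1). Vegfa was below Pgf in 4 of 4 mice, with differences of -2.41, -1.78, -3.12 and -2.48 in mice 1 to 4 and a mean difference of -2.45 ± 0.55 (SD), larger than the spread between mice. Flipping signs over mice (two-sided, exact permutation) gave p = 0.13, and 0.19 after Benjamini-Hochberg adjustment over 6 pairs. This is, rounded, the smallest p that 4 mice can give, so none of the 6 pairs could pass 0.05. Against Vegfc the difference was -1.68 ± 1.48, with Vegfa lower in 3 of 4 mice (p = 0.25 in the exact permutation, 0.3 adjusted), and mouse 1 was the exception with a difference of 0.42. Against Vegfb it was 1.17 ± 1.69, with Vegfa higher in 3 of 4 mice (p = 0.375 in the exact permutation, 0.375 adjusted), which was within the spread and came to 0.53 without mouse 1. Vegfd lay below Vegfa in 4 of 4 mice (p = 0.13 in the exact permutation, 0.19 adjusted). Since Vegfd had at most 1 count, the mean difference of 3.10 ± 0.92 depends on the pseudocount of 1 and is no fold change.

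**Figure D2:**
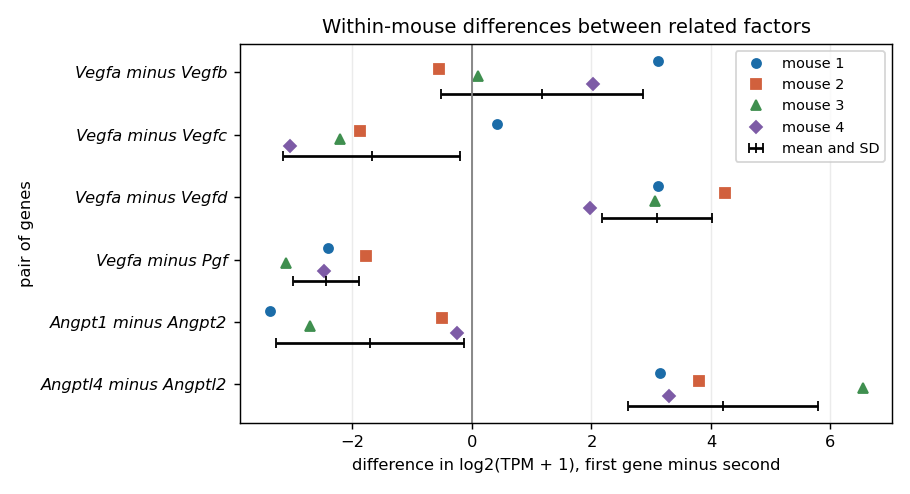
Differences in log2(TPM + 1) within each mouse for 6 pairs of related factors, first gene minus second, with 1 point per mouse and a bar for the mean and SD over 4 mice. For Vegfa minus Pgf and Angpt1 minus Angpt2 all 4 points lie below 0, and for Angptl4 minus Angptl2 all lie above it.

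Flt1 (ENSMUSG00000029648; chromosome 5, 147561604 to 147726011, minus strand), the receptor of VEGFA, VEGFB and Pgf, had 0 counts in each of the 4 libraries, which allows a level of up to 0.0126 to 0.0215 TPM. No count was found on Kdr or Flt4 either, the other VEGF receptor kinases, and 29.4% of protein-coding genes had 0 counts in every mouse. The co-receptors differed from the kinases. Nrp2, a neuropilin that binds VEGFC and semaphorins, had 166, 101, 113 and 89.9 TPM, a mean of 117 ± 33.8 TPM (SD, n = 4). Nrp1, the neuropilin that binds VEGFA, had 17.7 ± 4.32 TPM and was also present in every mouse. Endothelial markers, a list that holds Kdr and Flt4 again, were low or not detected. Of the 13 markers, 0 had a median above 1 TPM. Kdr, Flt4, Cdh5, Tie1, Esam and Cldn5 had 0 counts in every library, and the summed level was 0.0501 to 5.95 TPM. The highest sum was in mouse 1, where Plvap alone had 198 counts.

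Angpt2 (ENSMUSG00000031465; chromosome 8, 18690263 to 18741562, minus strand), known as a product of activated endothelium, was among the higher factors of these cells. It had 3059, 2037, 3020 and 724 counts, or 47.1, 49.6, 47.4 and 19.0 TPM. Mice 1, 2 and 3 lay close together and mouse 4 stood below them. The mean was 40.8 ± 14.6 TPM (SD, n = 4), and the coefficient of variation of 35.7% was the lowest among the 8 genes past the cutoff.

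The other angiopoietins were present as well. Angpt1 had 3.60, 34.9, 6.35 and 15.9 TPM over the 4 mice, on average 15.2 ± 14.2 TPM (SD). Its difference from Angpt2 was -1.71 ± 1.58 on the log2 scale, with Angpt2 higher in 4 of 4 mice (p = 0.13 in the exact permutation, 0.19 adjusted), and came to -0.50 in mouse 2 and -0.25 in mouse 4. Without scaling by length, Angpt1 had more counts than Angpt2 in mouse 4 (853 against 724). An antisense gene, Gm17473, covers 14.2% of the exonic bases of Angpt1 and had 0 counts. With no strand option given, pairs on these shared bases may have been counted for neither gene, which would lower Angpt1. The size of such a loss was not measured. The search for near-identical copies gave 1 other gene, for 17.3% of the longest transcript of Angpt1. Overlapping genes were not set aside in this search, so this may be Gm17473 itself. Angpt4, a further Tie2 ligand, had 54.9, 94.6, 393 and 46.5 TPM, so that mouse 3 stood far above the others. Angpt2 made up 26.6% ± 14.1 of the summed TPM of the 3 angiopoietins and Angpt4 62.5% ± 17.2, with Angpt1 as the remainder. The receptor Tek had 0, 58, 0 and 42 counts, at most 1.11 TPM, and Tie1 had 0 in every library.

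Angptl4 (ENSMUSG00000002289; chromosome 17, 33773750 to 33781830, minus strand) had the highest level of the 10 genes in each mouse, though in mouse 1 it was scarcely above Angpt2. It had 2974, 10301, 13986 and 4376 counts, or 47.7, 261, 229 and 120 TPM. Mice 2 and 3 stood high and mouse 1 low, a range of 5.48-fold. The mean was 164 ± 98.6 TPM (SD, n = 4), and by its median (174 TPM) it stood above 97.5% of protein-coding genes. Angptl2 (ENSMUSG00000004105; chromosome 2, 33216069 to 33247717, plus strand), a secreted protein linked to inflammation and vessel growth, had 496, 1250, 159 and 735 counts, or 4.48, 17.9, 1.46 and 11.3 TPM. The mean of 8.78 ± 7.33 TPM (SD, n = 4) fell to 5.75 TPM without mouse 2. Angptl4 minus Angptl2 was 4.20 ± 1.59 on the log2 scale and positive in 4 of 4 mice (p = 0.13 in the exact permutation, 0.19 adjusted), with the widest difference of 6.54 in mouse 3, where Angptl2 was lowest.

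Adm (ENSMUSG00000030790; chromosome 7, 110627661 to 110629820, plus strand) was detected in mice 3 and 4, with 557 and 327 counts, or 19.9 and 19.5 TPM. In mice 1 and 2 it had 0 counts, which allows up to 0.105 and 0.167 TPM. The mean of 9.86 ± 11.4 TPM (SD, n = 4) thus describes no single mouse, and without mouse 3 it was 6.51 TPM. Of protein-coding genes with a mean above 1 and up to 20 TPM, 11.9% had 0 counts in at least 2 of the 4 libraries, as Vegfb and Adm did. The receptor chains of adrenomedullin were uneven. Calcrl had 26, 1, 0 and 0 counts and Ramp3 had 0 in every library, while Ramp1, which with Calcrl forms a receptor for CGRP, had 255 ± 20.3 TPM (SD, n = 4). Ramp2 had 3.24 ± 2.90 TPM, a value that is uncertain because 33.4% of its exonic bases overlap Vps25 on the same strand. The search for near-identical copies gave 1 other gene, for 74.6% of its longest transcript. This may be the same overlap, as overlapping genes were not set aside in the search.

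**Figure D3:**
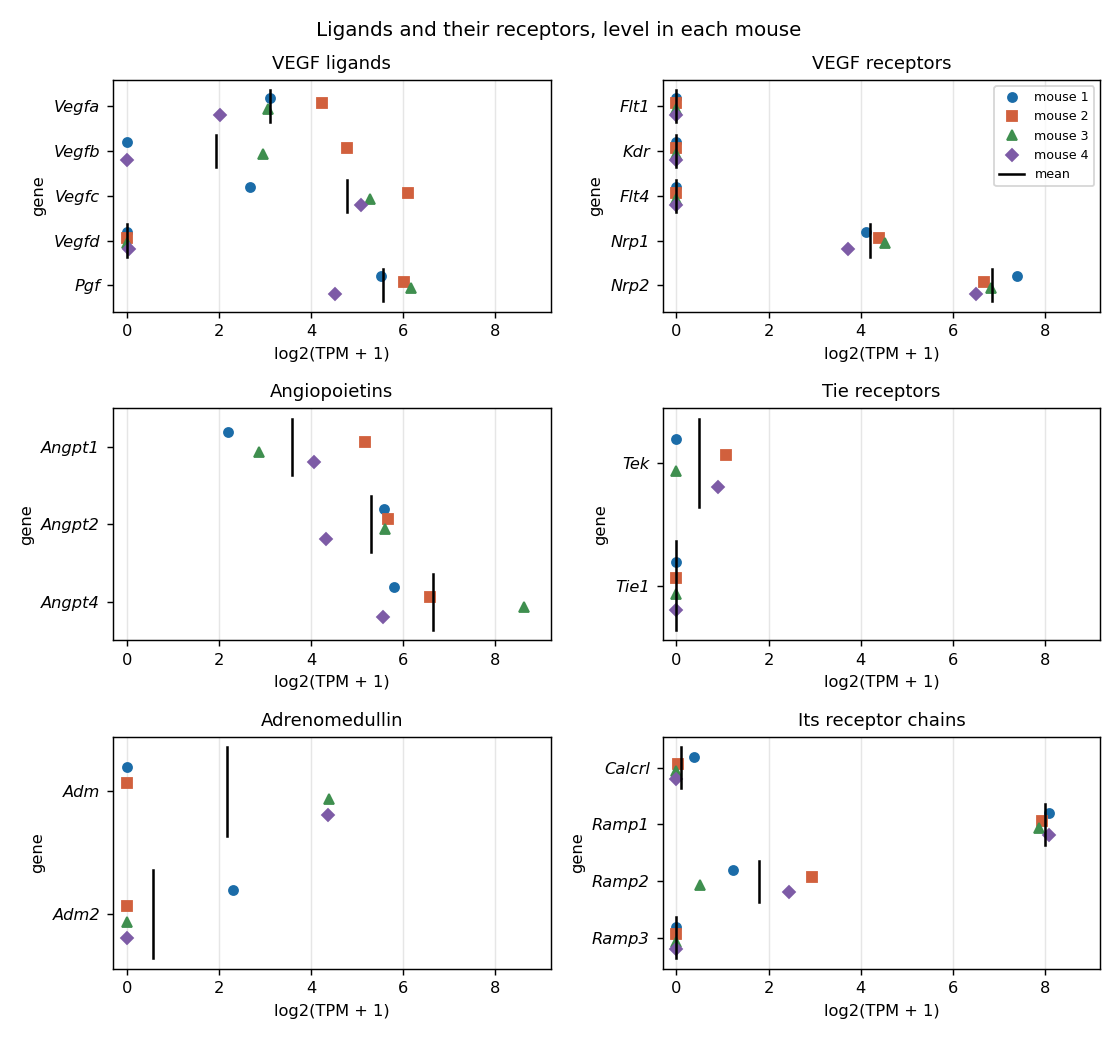
Level as log2(TPM + 1) of ligands (left panels) and of their receptors (right panels), with 1 point per mouse and a bar for the mean of 4 mice. Pgf, Vegfc, Angpt2 and Angpt4 are well above 0 in every mouse, while Flt1, Kdr, Flt4, Tie1 and Ramp3 are at 0 in all 4 and Nrp1, Nrp2 and Ramp1 are the receptor chains with high levels.

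In the order of medians, Angptl4 differed from Pgf by 1.54 ± 1.01 in log2(TPM + 1) and Vegfc from Adm by 2.60 ± 2.50, each larger than its SD over mice. The difference of Vegfc and Adm depends on the pseudocount of 1, since Adm had 0 counts in mice 1 and 2. In mice 3 and 4 Vegfc had 37.8 and 32.8 TPM and Adm 19.9 and 19.5 TPM. The neighbours outside these pairs did not differ beyond their spread. Pgf and Angpt2 differed by 0.26 ± 0.28, Angpt2 and Vegfc by 0.50 ± 1.66, and Vegfa and Vegfb by 1.17 ± 1.69. Adm and Angptl2 differed by -0.72 ± 3.27, and Angptl2 and Vegfa by -0.21 with an SD larger than that, so that here the gene with the lower median had the higher mean on this scale. Flt1 and Vegfd were both at the limit of detection. Since the order was read from the same values, these differences carry no test.

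The spread between mice is given as the coefficient of variation, which was 60.0% for Angptl4 and 69.8% for Vegfa. Beside protein-coding genes of like level, Angptl4 varied more than the median of 24.7% among 828 genes with a mean of 100 to 1000 TPM. Vegfc, at 71.2%, was above the median of 44.0% among 4055 genes from 10 to 100 TPM, while Pgf, at 43.8%, and Angpt2 were below it. Vegfb, at 151%, and Adm, at 115%, were above the median of 84.7% among 5727 genes from 1 to 10 TPM, and Vegfa and Angptl2, at 83.4%, were below it.

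Profiles over mice differed between the factors. Of the 8 genes with a median above 1 TPM, 6 were highest in mouse 2, where 26.2% of protein-coding genes past this cutoff were, and the exceptions were Pgf and Adm, highest in mouse 3. Angptl4 and Vegfc shared the order of mice 2, 3, 4 and 1 from high to low, an order found in 5.48% of protein-coding genes past the cutoff. With a common upper quartile between libraries, or without the 10 highest genes in the denominator, mice 3 and 4 changed places for Vegfc. Vegfa, Pgf and Angpt2 were all lowest in mouse 4, and the share of all genes lowest there is not given here. The root mean square difference between profiles centred on each gene's mean was 0.24 in log2(TPM + 1) for Pgf and Angpt2, 0.45 for Vegfa and Angpt2 and 0.45 for Vegfc and Angptl4, and it was above 2 for Adm and every other factor.

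Marker genes of cell types were read beside these profiles. Of 10 markers of stromal niche cells, 9 had a median above 1 TPM and none was at 0 in every mouse. Their summed level was 1131, 4795, 2441 and 1339 TPM in mice 1 to 4, of which Cxcl12 alone made up 80.6% to 91.1%. Of the 10 markers, 8 were highest in mouse 2 and 6 lowest in mouse 1, while Itgav and Prrx1 were highest in mouse 1. The full order of Angptl4 and Vegfc was found in 2 of the 10, namely Cxcl12, the chemokine that retains blood stem cells, at 983, 4329, 2224 and 1079 TPM, and Kitl, which encodes stem cell factor, at 14.9, 112, 73.4 and 48.4 TPM. The 6 adipocyte markers also summed in this order, with 200.2 TPM in mouse 1, 962 TPM in mouse 2 and Plin1 at 0 in every library. Adipoq made up 66.0% to 92.0% of the sum but was nearly level in mice 1 and 4 (184 and 185 TPM). With the scaling factors of edgeR or DESeq2, mice 1 and 4 changed places for Adipoq. The 7 erythroid markers ran otherwise, at 4983, 35.0, 1708 and 358 TPM, so that mouse 1, lowest in Angptl4 and Vegfc, held the most. The 7 pericyte and smooth muscle markers summed to 3.18, 29.7, 10.5 and 16.7 TPM, with nearly all of the sum of mouse 2 from Rgs5 (29.1 TPM), and Acta2 and Mcam were at 0 in every library. The summed level of the 7 osteoblast markers was highest in mouse 4 and lowest in mouse 3, but this was the order of Bglap, which made up 54.5% to 79.5% of the sum, and of no other marker in the list. Of the other 6, Ibsp, Alpl and Dmp1 were highest in mouse 3, Sp7 and Col1a1 in mouse 1 and Runx2 in mouse 2. Chondrocyte markers (6 genes, 219 to 376 TPM, mostly Col11a2), macrophage markers (6 genes, 0.254 to 16.1 TPM, with Adgre1, Csf1r and C1qa at 0), neutrophil markers (7 genes, 6.84 to 39.7 TPM) and megakaryocyte markers (5 genes, 0 to 7.95 TPM) were highest in mice 1, 3, 1 and 1. The part of these cell types in the levels of the angiogenic factors was not tested.

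**Figure D4:**
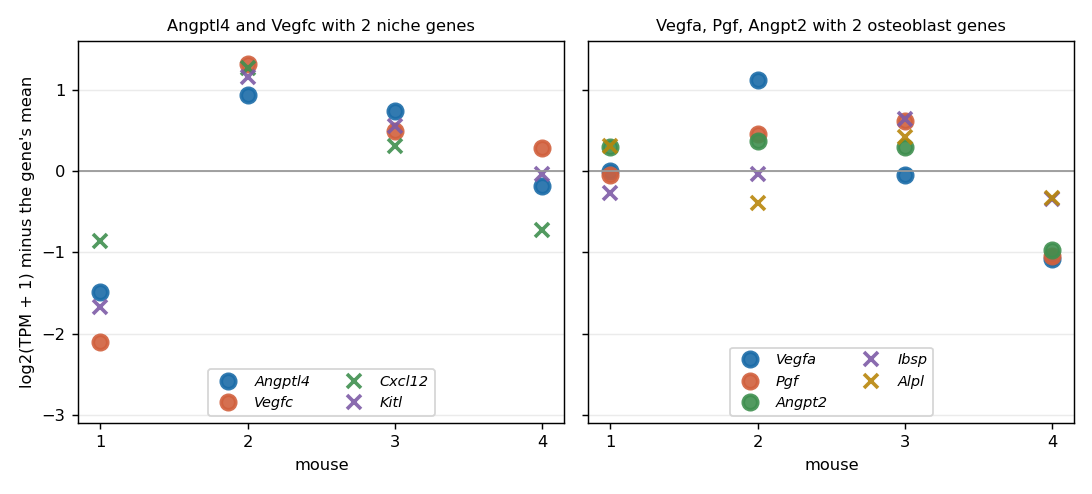
Profile over mice of selected factors (filled circles) and marker genes (crosses) as log2(TPM + 1) minus the mean of each gene. At left Angptl4, Vegfc, Cxcl12 and Kitl are lowest in mouse 1 and highest in mouse 2. Cxcl12 and Kitl are the 2 of 10 niche markers with the full order of Angptl4, and the other niche markers are not plotted. At right Vegfa, Pgf and Angpt2 are lowest in mouse 4, as is the osteoblast gene Ibsp, while Alpl, another, is lowest in mouse 2. The other osteoblast markers are not plotted.

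Among 4974 protein-coding genes with a mean of at least 10 TPM, the profile over 4 mice nearest to Angptl4 was that of H2-T22, with a root mean square difference of 0.084 in log2(TPM + 1), followed by Bcs1l at 0.11 and Tap1 at 0.14. Tspan12 was nearest to Vegfc at 0.12, Fnta to Vegfa at 0.036, Dcaf7 to Pgf at 0.050, Med31 to Angpt2 at 0.035 and Plac9a to Angptl2 at 0.14. Zc3h8 was nearest to Vegfb at 0.096 and Tnmd, a gene of tendon and ligament cells, to Adm at 0.24. With 4 points per profile, such likeness is a description of these libraries only.

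The other genes of the pathway were read from lists. Of 11 receptors and co-receptors, 4 had a median above 1 TPM, namely Nrp1, Nrp2, Ramp1 and Ramp2, against the 44.2% of protein-coding genes past the cutoff given above. Another 5 had 0 counts in every library, where 29.4% of protein-coding genes had none. Of 15 other angiogenic ligands 6 passed, led by Ccn1, a matricellular protein, at 1408 ± 873 TPM (SD, n = 4), and Angpt4. Of 10 inhibitors of angiogenesis 6 passed. Serpinf1, which encodes the inhibitor PEDF, had 8924, 5289, 6495 and 6588 TPM in mice 1 to 4, a mean of 6824 ± 1520 TPM, far above every factor of the set. Thbs1 (thrombospondin 1) followed at 71.3 ± 21.2 TPM.

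For hypoxia sensing, 7 of 9 genes passed the cutoff, which 44.2% of protein-coding genes passed. The highest were Epas1 (HIF2A) at 45.0 ± 32.6 TPM and Egln2, a prolyl hydroxylase, at 35.4 ± 26.0 TPM (SD, n = 4). The list of hypoxia targets other than the factors themselves held 12 genes, of which Ca9 was not analysed here and 10 of the other 11 passed, led by Ldha at 328 ± 94.3 TPM and P4ha1, a collagen prolyl hydroxylase, at 212 ± 89.4 TPM. The Ldha value is uncertain, as sequence nearly the same as 55.0% of it occurs in 5 other genes. The summed level of these targets was 876, 469, 865 and 605 TPM in mice 1 to 4, most of it from Ldha and P4ha1. In mouse 2, 8 of the 11 targets were lowest, while Slc2a1, a glucose transporter, was highest there at 15.1 TPM and Bnip3 was second highest. The share of all genes lowest in mouse 2 is not given here. This library had the fewest genes with a count, 16109, where the others had 18683 to 18907. The part of hypoxia in the levels of the factors was not tested. Of 10 PPAR targets other than Angptl4, 6 passed, led by Adipoq at 351 ± 215 TPM and Lpl, the lipase that Angptl4 inhibits, at 95.7 ± 130 TPM. Their sum was 273, 965, 526 and 270 TPM, of which Adipoq made up 65.8% to 75.8%. The single targets differed in profile. Adipoq, Lpl and Pparg were highest in mouse 2, whereas Plin2 and Pdk4 were lowest there and Cd36 was at 0 in mice 2 and 3.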

How the data were processed

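RNA-seq libraries of sorted MSCs from 4 mice were used. The deposited values are raw counts. The authors mapped paired reads with STAR to GRCm39, relaxing its filters so that pairs aligned over part of their length were kept, which can add short matches to a count. Unique pairs on exons were summed per Ensembl gene in featureCounts, with no strand option given. The submitters' processing notes list STAR 2.7.10 and Subread 1.6.5. Each column was matched to its mouse through the sample description, and 0 columns were unused. TPM was computed from the counts in Python 3.11.15 (numpy 2.4.6, pandas 2.3.3) with union exon lengths of GENCODE M21 on GRCm38, joined by Ensembl identifier. The build differs from that of the counts, so a gene whose exons changed has a TPM off by the ratio of lengths. Of the listed genes, 4855 had no length there and were left out. Depth was 22738604 to 43545349 counts, with 3 counts as the detection limit. A gene was called expressed at a median above 1 TPM, the cutoff of the study's methods.

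The 6 pairs were tested by flipping signs over mice (exact permutation test, two-sided), adjusted after Benjamini and Hochberg. Scaling factors came from edgeR 4.0.16 and DESeq2 1.42.0, near-identical copies (95% identity over 100 bases) from BLAST 2.17.0. Genes that overlap the searched gene were not set aside and can appear as copies. TPM and test code was tested on simulated data. All factors were reported, with the 2 highest genes of each list and the receptor or ligand partners. The genes and lists were chosen with earlier results of these data known. Alternatives were other lengths, scalings, denominators, cutoffs, pseudocounts, a count filter and leaving out each mouse. A median in place of the mean and the order of mice under other scalings were added after seeing the data. Genes named beyond the rule (Plvap, Rgs5, Vps25, those found in 1 or 2 libraries, and list genes given because they carry or go against the sum of their list) were chosen after their values were seen.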

Additional observations from a re-analysis of the deposited data

Results flagged for a closer look

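Among 32 values compared over the 4 mice, 5 had 1 mouse set apart: the distance to the closest other mouse, divided by the range over all mice (gap), exceeded the 95% limit of Dixon's test. The nominal rate of 1 value in 20, or 1.6 of these, holds for independent values with a normal distribution. TPM values need not be so, several pairs share Vegfa, and a gene with counts in 1 library only has a gap of 1 by construction. The 5 against 1.6 is therefore no test of chance. Angpt2 was low in mouse 4 (19.0 TPM, with 47.1 to 49.6 TPM elsewhere, gap 0.918). Angpt4 was high in mouse 3 (393 TPM, with 46.5 to 94.6 TPM elsewhere, gap 0.861). Lpl was high in mouse 2 (290 TPM, with 14.7 to 44.5 TPM elsewhere, gap 0.892). Calcrl had 26, 1, 0 and 0 counts in mice 1 to 4 (gap 0.939). Vegfd had its single count in mouse 4 (gap 1), which is under the detection limit.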

How the results depend on the processing

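The number of factors with a median above 1 TPM was 8, and between 6 and 8 under every alternative. It was 7 without mouse 2 or mouse 4 and 6 without mouse 3, with at least 10 counts in every library, or with more than 1 TPM in every mouse. The filter of 10 counts left no value for Vegfb, Vegfd, Flt1 and Adm. Without the 10 highest genes in the denominator, Pgf rose to 78.5 and Angpt2 to 63.7 TPM, more than 1 SD, because every gene is then scaled by a smaller sum. As CPM, counts scaled by depth and not by length, Vegfa was 16.2, Angpt2 62.7 and Angptl2 23.9. The other means moved by less than 1 SD. All 6 mean differences kept their sign under every alternative that gave a value. As CPM, Angpt2 was above Angpt1 in 3 of 4 mice in place of 4 (exact permutation p = 0.375). Vegfa minus Pgf ranged from -2.67 to -1.64, Vegfa minus Vegfc from -2.38 to -0.96, Angpt1 minus Angpt2 from -2.20 to -1.11 and Angptl4 minus Angptl2 from 3.07 to 4.54. Vegfa minus Vegfb was 0.21 at its smallest. The smallest p is 0.13 (rounded) with 4 mice and 0.25 with 3, so the tests show no stability. No paired analysis was possible because the libraries form 1 group, so mice could not be matched across groups, and the 6 differences pair genes within a mouse. Vegfd, Flt1, Kdr and Flt4 were not detectable at this depth, and the reason was not tested.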

Other observations

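Several further vascular genes were found in 1 or 2 libraries only, and were picked after their values were seen. Adm2, a relative of adrenomedullin, had 90 counts in mouse 1 and 0 in the others. Cnmd, which encodes the cartilage protein chondromodulin, an inhibitor of vessel growth, had 353 counts in mouse 1 and 0 in the others. Angptl7 had 1092 counts in mouse 3, 12 in mouse 4 and 0 in mice 1 and 2. Angptl6 had 225 and 103 counts in mice 1 and 3 and 0 in the others. Slc2a1, the glucose transporter that hypoxia induces, had 588 and 209 counts in mice 2 and 4 and 1 count in each of mice 1 and 3.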
